A study of Homo sapiens with 6 samples.

Results

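Protein tyrosine phosphatases of the lymphocyte type were followed in MM.1S, a line grown from a human multiple myeloma, through PTPN6 and 9 other listed genes, 10 in all. The genes were chosen by name, with enzastaurin ratios of these arrays already known, so all enzastaurin values of members are a description, given with no p-value, and where a fit across all genes called a member, the call supports nothing. Every probe set paired with exactly 1 gene symbol in the platform annotation, where that symbol was a listed gene, was taken. This gave 9 of the 10 genes, of 11963 genes on the array, with 23 of its 22277 probe sets: 5 for PTPN11, 3 each for PTPN1, PTPN2, PTPN12, PTPN22 and PTPRC, and 1 each for PTPN6, PTPN7 and PTPRCAP. PTPRJ was not analysed here. RNA came from cells treated for 3, 6 or 12 h with enzastaurin, which inhibits the beta form of protein kinase C, and from untreated cells at the same hours. Each treatment and time had 1 array, so there were 3 enzastaurin arrays and 3 untreated arrays, hybridised with biotin-labelled RNA copies. The labels give no dose and no vehicle, and they do not say whether the arrays came from separate cultures.

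Tyrosine phosphatases remove the phosphate groups that tyrosine kinases add, and in blood cells the balance between both sets the strength of receptor signals. PTPN6 encodes SHP-1, which carries tandem SH2 domains, docks on inhibitory receptors and dampens Src, Syk and JAK kinase signals. Its relative PTPN11 encodes SHP-2, which has the same domain order and mostly promotes Ras and ERK signalling. PTPRC encodes CD45, the transmembrane phosphatase that activates Src family kinases in lymphocytes and is low or lost on many myeloma cells.

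Every level below is a MAS5 intensity on a linear scale, and every ratio is the log2 of enzastaurin over untreated intensity at the same time. A gene was tested where its brightest probe set lay in the upper 50 percent by average log2 signal, which means a geometric mean of at least 63.3, and 6838 genes were. Of the 9 measured members 7 were tested, namely PTPN6, PTPN11, PTPN1, PTPN2, PTPN7, PTPN12 and PTPRCAP, while PTPN22 and PTPRC were not. Median intensities ran from 62.2 to 67.6 across the 6 arrays. Probe sets for ribosomal RNA split the arrays across treatment. On average their log2 intensity was 9.99 on the 3 h enzastaurin array and 11.98 and 9.29 on the 6 h and 12 h untreated arrays. It was 3.79 and 3.02 on the 6 h and 12 h enzastaurin arrays and 3.39 on the 3 h untreated array. The 3' to 5' log2 ratio of ACTB was 2.0, 0.57 and 0.86 in enzastaurin cells at 3, 6 and 12 h, against 1.89, 1.16 and 1.60 in untreated cells. All 8 plasma cell markers searched, SDC1 and TNFRSF17 among them, passed the filter, with summed intensities of 12160 to 15850 on enzastaurin arrays and 14770 to 20320 on untreated arrays. At 12 h 7 of the 8 were lower with enzastaurin, and XBP1 was higher. TNFRSF17 had 2970, 2119 and 528 in enzastaurin cells at 3, 6 and 12 h, against 3003, 4308 and 4474 in untreated cells. SDC1 had 2490, 1850 and 1229 in enzastaurin cells, against 2319, 2913 and 3278 in untreated cells. Both thus stood lower at each later time with enzastaurin, as PTPN6, CD38 and MZB1 did, whereas IRF4, PRDM1, XBP1 and SLAMF7 did not. The part of this in the PTPN6 ratios was not tested. None of the 14 markers of T, NK and monocyte cells passed the filter, and their medians over the arrays ran from 0.754 to 44.0.

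PTPN6 had intensities of 600, 196 and 82.7 in enzastaurin cells at 3, 6 and 12 h, against 335, 755 and 793 in untreated cells. Its log2 ratios were 0.84, -1.95 and -3.26, so it was 1.79-fold higher with enzastaurin at 3 h, 3.85-fold lower at 6 h and 9.59-fold lower at 12 h. The enzastaurin series stood lower at each later time, the untreated series was low only at 3 h, and the groups overlapped, since the 3 h enzastaurin array lay above the 3 h untreated array. Among the 6838 tested genes the PTPN6 ratio stood above 96.5 percent of the others at 3 h, ranked 26 from the lowest at 6 h and ranked 3 from the lowest at 12 h. Even the lowest PTPN6 intensity, 82.7, lay above the highest single value of the T, NK and monocyte markers, 61.4. Under 3 other scalings of the arrays the 12 h ratio lay between -3.30 and -3.07.

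PTPN6 rests on 1 probe set, so no second probe set bears on this course. In the limma fit over all 6 arrays, blocked by time point, the mean PTPN6 log2 ratio was -1.46 (moderated SE 0.58, n = 3 pairs). Without the 3 h pair it was -2.60, without the 6 h pair -1.21 and without the 12 h pair -0.55, so the size depended on which times entered. The slope of the ratio per doubling of hours was -2.05 (moderated SE 0.37). The slope fit had 1 residual degree of freedom, and its SE came wholly from the variance of genes of like intensity. This SE thus does not measure the spread of PTPN6 itself. The untreated arrays contributed to that slope, since untreated PTPN6 at 12 h exceeded untreated PTPN6 at 3 h by 1.24 on the log2 scale, while enzastaurin PTPN6 at 12 h fell by 2.86 against enzastaurin PTPN6 at 3 h.

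**Figure D1:**
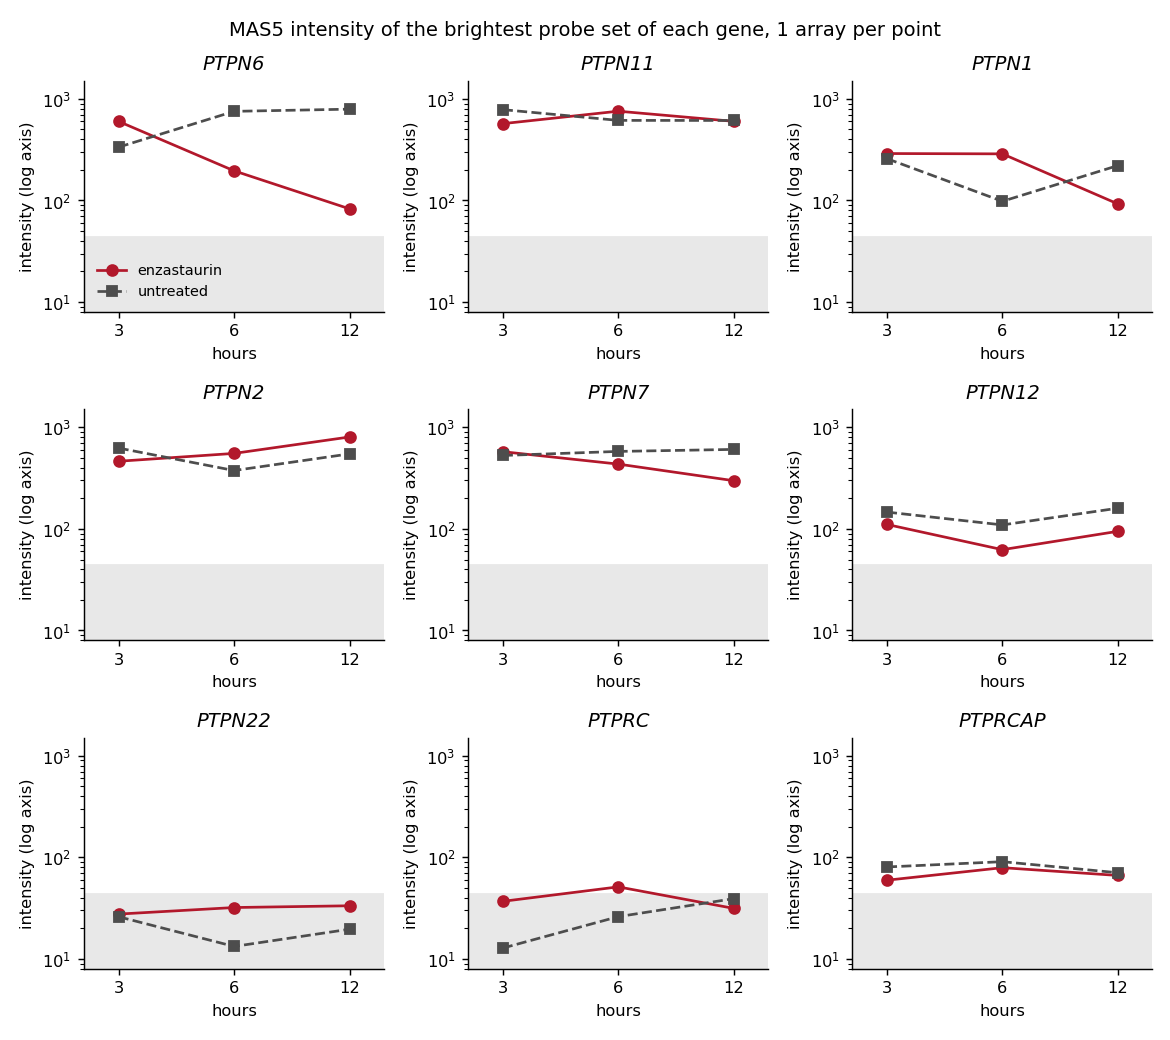
MAS5 intensity (log axis) of the brightest probe set of the 9 measured genes at 3, 6 and 12 h in enzastaurin cells (red circles) and untreated cells (grey squares), 1 array per point with no error bars. The grey band spans the array medians of the 14 T, NK and monocyte markers, cut at the lower axis limit. PTPN6 is the gene whose lines part most, to 82.7 with enzastaurin against 793 untreated at 12 h, while PTPN22 and PTPRC lie mostly in the band.

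The split of the arrays by ribosomal RNA also parted those of high PTPN6 from those of low PTPN6, though the order within each side differed. The 3 arrays with the high ribosomal RNA signal had PTPN6 intensities of 600 for enzastaurin at 3 h, and 755 and 793 for untreated cells at 6 and 12 h. The 3 arrays with the low signal had 196 and 82.7 for enzastaurin at 6 and 12 h, and 335 for untreated cells at 3 h. PTPN7 followed the same split by a small margin, with 576, 580 and 607 on the arrays of high signal and 435, 299 and 529 on the others. The brightest PTPN2 probe set followed the split in reverse, with 464, 376 and 548 on the arrays of high signal and 554, 805 and 625 on the others. The second kept PTPN2 probe set did not follow the split, and neither did PTPN1. With this ribosomal RNA signal as a covariate the mean PTPN6 log2 ratio was -0.84, in a fit with 1 residual degree of freedom. The part of the ribosomal RNA signal in these ratios was not tested further.

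**Figure D2:**
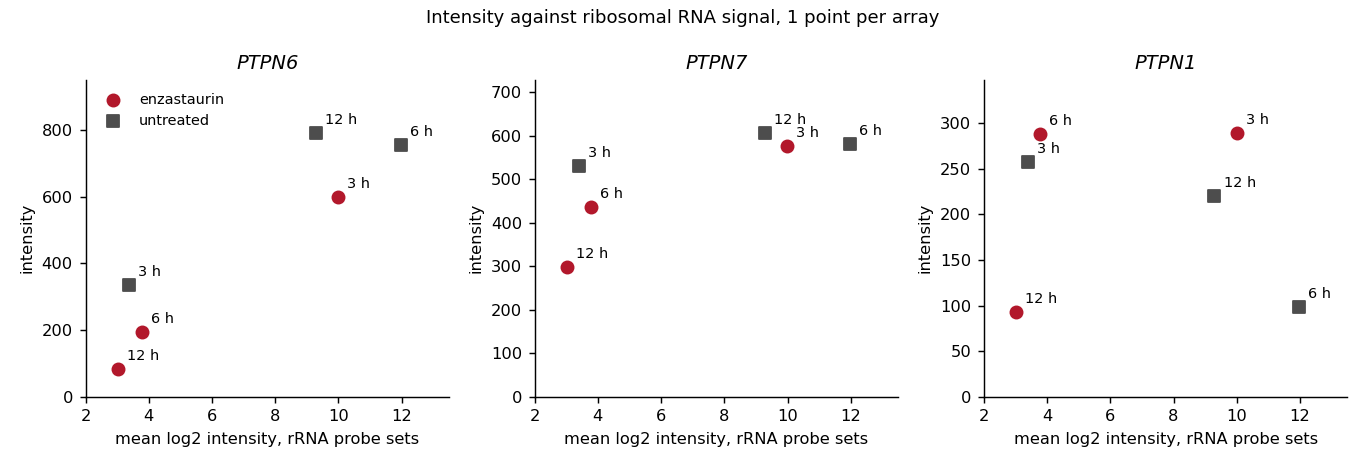
Intensity of PTPN6, PTPN7 and PTPN1 on linear axes against the mean log2 intensity of 3 ribosomal RNA probe sets, 1 point per array, enzastaurin in red circles and untreated in grey squares, labelled by hour. For PTPN6 the 3 arrays at 9.29 or more on the horizontal axis lie at 600 to 793 and the other 3 at 82.7 to 335, whereas PTPN1 has low and high points on both sides.

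Promoter sequences are shown for PTPN6 and PTPN7. Of the other tested members PTPN7 had intensities that ran most like those of PTPN6 over the 6 arrays (Pearson r = 0.973). This r is a description over 6 arrays that share 3 times and the ribosomal RNA split. RefSeq windows on GRCh38.p14, 250 bases before to 50 after a gene start, were found for 7 of the 10 listed genes, with 10 windows in all. PTPN6 has 2 windows on the plus strand of chromosome 12, at chr12:6946327-6946626 and chr12:6951106-6951405, and is known to be transcribed from more than 1 promoter. PTPN7 has 3 windows on the minus strand of chromosome 1, of which the one with the most motif matches is shown, at chr1:202160553-202160852. Capitals mark AGGAAG on either strand (CTTCCT where it lies on the other strand), a form of the purine-rich core that ETS family factors such as PU.1 bind.
PTPN6 upstream window: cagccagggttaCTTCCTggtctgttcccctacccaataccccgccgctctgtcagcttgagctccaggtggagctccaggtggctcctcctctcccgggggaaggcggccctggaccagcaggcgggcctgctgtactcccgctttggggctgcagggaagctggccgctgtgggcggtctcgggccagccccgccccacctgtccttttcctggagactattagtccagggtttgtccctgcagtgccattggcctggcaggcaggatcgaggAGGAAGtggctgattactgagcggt
PTPN6 downstream window: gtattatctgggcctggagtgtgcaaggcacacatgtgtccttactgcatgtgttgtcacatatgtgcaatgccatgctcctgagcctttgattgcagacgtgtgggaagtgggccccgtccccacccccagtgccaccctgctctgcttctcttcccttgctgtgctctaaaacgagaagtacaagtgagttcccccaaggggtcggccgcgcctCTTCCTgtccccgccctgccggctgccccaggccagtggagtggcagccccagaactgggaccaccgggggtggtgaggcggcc
PTPN7 window: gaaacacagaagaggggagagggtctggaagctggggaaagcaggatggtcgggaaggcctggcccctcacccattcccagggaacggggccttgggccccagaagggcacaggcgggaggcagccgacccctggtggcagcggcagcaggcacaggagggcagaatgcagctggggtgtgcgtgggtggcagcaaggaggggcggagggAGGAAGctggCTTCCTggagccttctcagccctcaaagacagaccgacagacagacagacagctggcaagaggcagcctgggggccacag

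The upstream PTPN6 window holds 2 AGGAAG matches, the downstream one holds 1 and the PTPN7 window shown holds 2. Of the 10 windows of members 7 hold the motif, as do 33.6 percent of all 35116 windows of this length. The GC box GGGCGG, searched on both strands and able to share at most 1 letter with AGGAAG, was found in 4 of the 10 windows and in 45 percent of all windows. Both PTPN6 windows and the PTPN7 window shown hold it. A match of letters does not show that a factor binds there, and both motifs were chosen with the members' values known.

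PTPN11, the SHP-2 gene, stayed within a narrow range in its brightest probe set. This probe set had 571, 757 and 602 in enzastaurin cells, against 784, 615 and 614 in untreated cells, and log2 ratios of -0.46, 0.30 and -0.03. The groups overlapped, and the sign at 12 h turned under another scaling, where the ratio reached 0.17. Its second probe set, at 120 to 171 on all arrays, had ratios of 0.06, 0.34 and 0.06. A further one, at 42 to 106, had 1.31 at 6 h, where the untreated array was its lowest. The remaining 2 lay at 50.2 or below and had 1.09 and 1.24 at 6 h. Every PTPN11 probe set thus had a ratio above 0 at 6 h, on 1 pair of arrays. In the limma fit the PTPN11 mean log2 ratio was -0.06 (moderated SE 0.28, n = 3 pairs). The mean ratios of its other probe sets ran from 0.05 to 0.60.

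PTPN1 encodes PTP1B, an enzyme of the endoplasmic reticulum membrane that acts on insulin and leptin signalling and on JAK2 and TYK2. Its brightest probe set had 290, 288 and 92.5 in enzastaurin cells at 3, 6 and 12 h, against 258, 98.1 and 221 in untreated cells. The 12 h enzastaurin array and the 6 h untreated array were low, and the other 4 arrays lay at 221 to 290. The log2 ratios were therefore 0.17, 1.55 and -1.25, with opposite signs at 6 and 12 h. The weaker probe set of PTPN1 had 24.4, 90.7 and 67.7 in enzastaurin cells, against 34.3, 57.5 and 39.5 in untreated cells. Its ratios of -0.49, 0.66 and 0.78 shared the sign of the brighter one at 6 h only. A further probe set of PTPN1, at 25.5 or below, was too dim to read.

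PTPN2 encodes TC-PTP, the nearest relative of PTP1B, which acts on JAK1, JAK3 and STAT proteins. Its brightest probe set had 464, 554 and 805 in enzastaurin cells, against 625, 376 and 548 in untreated cells. The log2 ratios were -0.43, 0.56 and 0.55, and the groups overlapped. In this probe set the arrays of high ribosomal RNA signal all lay below the others, and the part of that signal was not tested. The second PTPN2 probe set went the other way at the later times, with 243, 176 and 176 in enzastaurin cells, against 259, 229 and 251 in untreated cells. Its ratios were -0.09, -0.38 and -0.51. Whether the 2 probe sets report different transcripts of PTPN2 was not tested. The dimmest one had 2.26 at 6 h, where the untreated intensity was 13.7.

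PTPN7 encodes HePTP, a phosphatase of blood cells that acts on the MAP kinases ERK and p38. It had 576, 435 and 299 in enzastaurin cells at 3, 6 and 12 h, against 529, 580 and 607 in untreated cells. The enzastaurin values were lower at each later time, while the untreated values stayed within 529 to 607, and the groups overlapped through the 3 h arrays. The log2 ratios of PTPN7 were 0.12, -0.41 and -1.02, in the same order as those of PTPN6 and smaller. At 12 h PTPN7 was 2.03-fold lower with enzastaurin, and under 3 other scalings the ratio lay between -1.06 and -0.83. Its mean log2 ratio was -0.44 (moderated SE 0.31, n = 3 pairs).

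PTPN12 encodes PTP-PEST, which dephosphorylates the adhesion proteins BCAR1 and paxillin and the scaffold PSTPIP1. Its brightest probe set had 111, 62.5 and 94.7 in enzastaurin cells, against 147, 110 and 160 in untreated cells, and log2 ratios of -0.40, -0.81 and -0.76. It was lower with enzastaurin at all 3 times, although the highest enzastaurin value just exceeded the lowest untreated one. The mean PTPN12 log2 ratio was -0.66 (moderated SE 0.30, n = 3 pairs). The second kept probe set of PTPN12 disagreed, with 37.8, 143 and 143 in enzastaurin cells, against 70.8, 138 and 66.0 in untreated cells. Its ratios were -0.90, 0.05 and 1.12, so the 2 kept probe sets shared a sign at 3 h only.

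PTPRCAP encodes a membrane protein that binds CD45 and is no phosphatase itself. It had 59.6, 79.2 and 66.4 in enzastaurin cells, against 80.5, 90.8 and 70.6 in untreated cells, and log2 ratios of -0.43, -0.20 and -0.09. All 3 ratios were below 0, but the groups overlapped, and under another scaling the 12 h ratio turned to 0.11. PTPRC itself was not above the level of markers of absent cell types. Its brightest probe set had 36.9, 51.3 and 31.5 in enzastaurin cells, against 12.8, 26.1 and 39.2 in untreated cells. The other 2 probe sets of PTPRC lay between 0.372 and 27.8 over all 6 arrays, and the 3 gave ratios of -0.32, -2.96 and 2.93 at 12 h, with no common sign. No direction can be given for PTPRC.

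PTPN22 encodes LYP, which restrains Src family kinases and ZAP70 in lymphocytes. Its brightest probe set had 27.7, 32.1 and 33.4 in enzastaurin cells, against 26.0, 13.3 and 19.6 in untreated cells. All 3 enzastaurin values lay above all 3 untreated ones, but each lay in the range of the T, NK and monocyte markers. Among the tested genes, which do not include PTPN22, 10.6 percent had groups that did not overlap in either direction. The second PTPN22 probe set, at 12.8 to 23.5, had ratios of 0.18, 0.66 and 0.27. The remaining one had 54.2 in enzastaurin cells and 2.21 in untreated cells at 6 h, and ratios of -1.11, 4.62 and 1.02. At such intensities the size of a ratio is not exact.

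**Figure D3:**
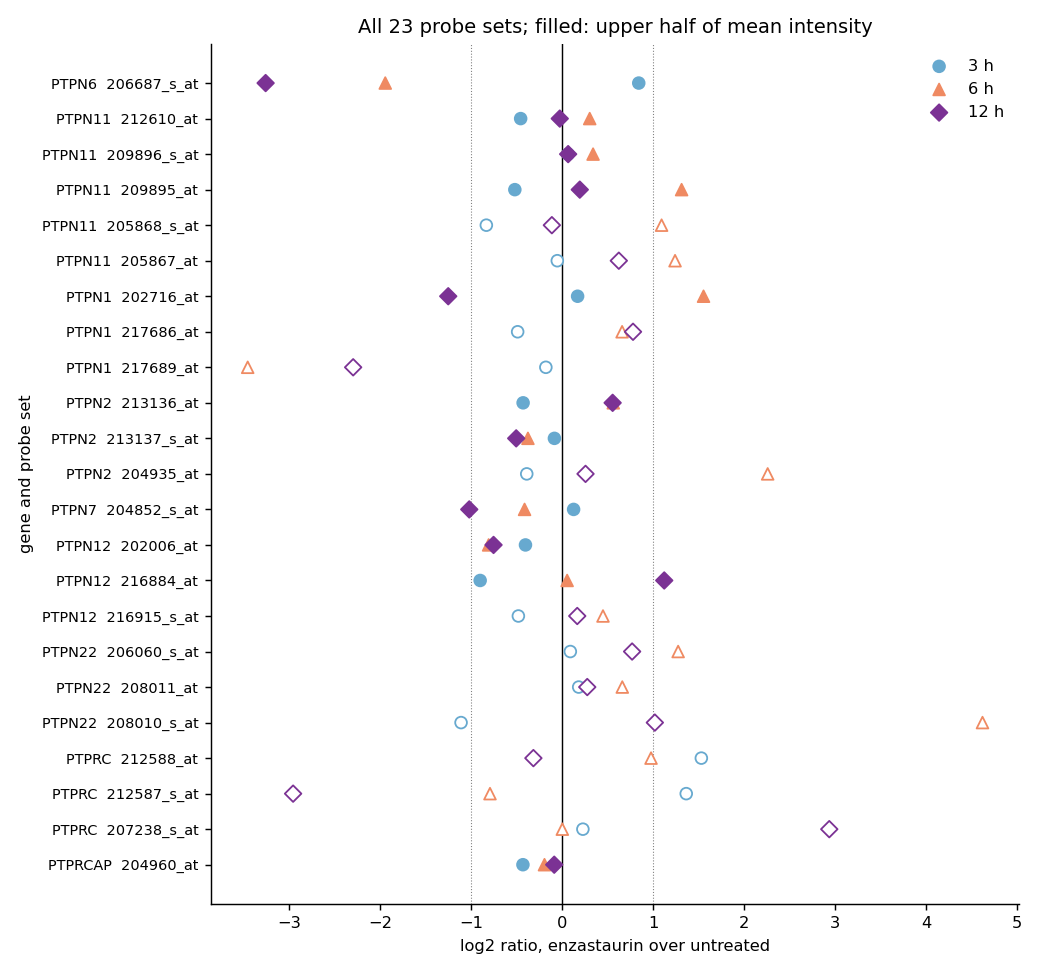
Log2 ratio of enzastaurin over untreated intensity for each of the 23 probe sets at 3 h (circles), 6 h (triangles) and 12 h (diamonds), 1 pair of arrays per symbol, with dotted lines at a 2-fold difference. Filled symbols passed the intensity filter. PTPN6 at -3.26 is the lowest filled symbol, and probe sets of PTPN2 and PTPN12 differ among themselves.

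Counts of the 7 tested members are set beside those of all tested genes. At 3 h 0 of 7 were at least 2-fold apart, where 4.53 percent of all genes were. At 6 h PTPN6 and PTPN1, 2 of 7, were at least 2-fold apart, beside 8.82 percent of all genes. At 12 h PTPN6, PTPN1 and PTPN7, 3 of 7, were, beside 14.3 percent of all genes. The lower ones among all such genes made up 58.4, 36.5 and 72.9 percent at 3, 6 and 12 h, and 46.9, 47.2 and 59.2 percent after quantile normalization. The median log2 ratio of the 7 was -0.41, -0.20 and -0.76, against -0.04, 0.06 and -0.18 over all tested genes. Scaled to equal medians of kept genes, all genes had a 12 h median of 0.02.

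Enzastaurin and untreated intensities did not overlap in 0 of the 7 tested members, beside 10.6 percent of all genes. PTPN12 and PTPRCAP, 2 of 7, had ratios of the same sign at all 3 times, beside 23.4 percent. The limma fit over 3 times called 0 of 7 at an adjusted p under 0.05, beside 0.0585 percent of all genes. The slope on log2 hours called PTPN6 alone, 1 of 7, beside 1.43 percent, and the fit of the later 2 pairs, 6 and 12 h, also called PTPN6 alone, beside 3.61 percent. Nothing is read from these counts, since the members were listed with the contrast known.

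**Figure D4:**
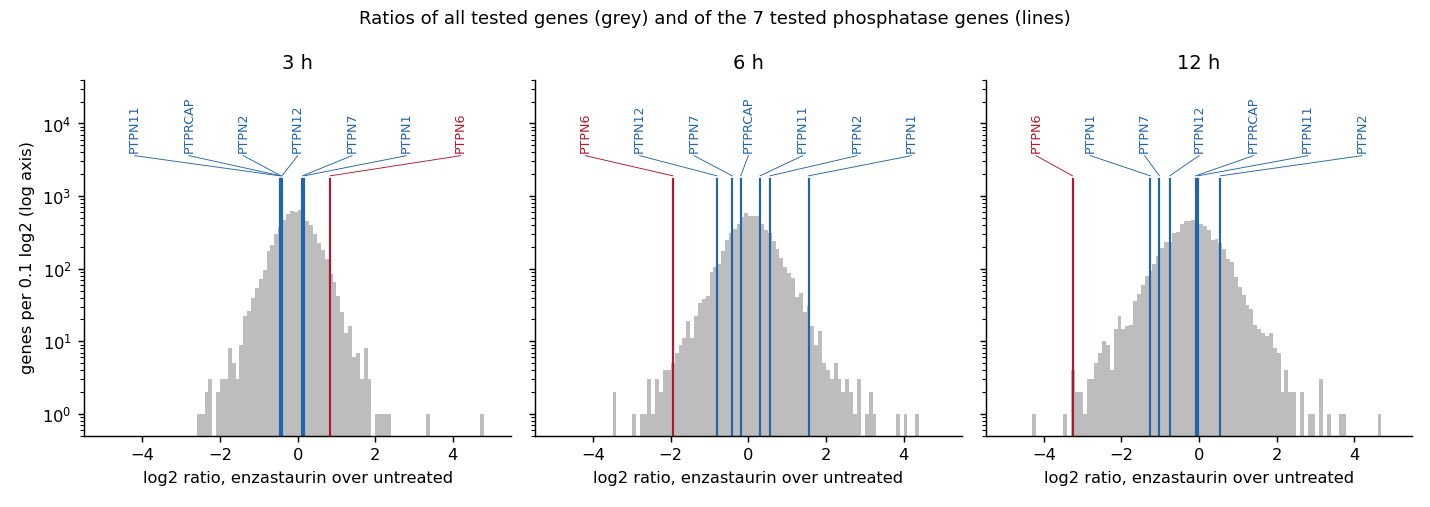
Histograms of log2 ratios of enzastaurin over untreated intensity for all 6838 tested genes at 3, 6 and 12 h (grey, log count axis, 1 pair of arrays per panel) with a line for each of the 7 tested members, PTPN6 in red. PTPN6 lies on the right of the bulk at 3 h (0.84) and in the far left tail at 12 h (-3.26), while the other 6 lie within 1.55 of 0 at every time.

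The difference between 12 h and 3 h over both treatments is estimated separately from the mean enzastaurin ratio. Its error, however, comes from how the enzastaurin ratios differed between times, and the members were listed with those ratios known. The fit passed no gene at all, so it cannot set the members apart from other genes. None of the 7 passed in limma, where 0 percent of all 6838 genes passed and 148 had an unadjusted p under 0.05. No member was among those 148. The largest log2 differences were -0.94 for PTPN1 (moderated SE 0.55, adjusted p = 0.999) and -0.81 for PTPN6 (moderated SE 0.72, adjusted p = 0.999). PTPN2 had 0.30 and PTPN7 -0.38, with moderated SEs of 0.38 each. PTPN11 had -0.14, PTPN12 -0.05 and PTPRCAP -0.02. For PTPN6 this mean joins a rise in untreated cells and a fall in enzastaurin cells, which count as error here.

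Genes whose course was most like that of PTPN6 were sought among the 261 tested genes whose log2 intensity ranged over at least 2 units, by Pearson r over the 6 arrays. The highest r belonged to PWP2 (0.995), a factor of small ribosomal subunit assembly, ARPC1B (0.995), a subunit of the actin-nucleating Arp2/3 complex, and MICAL1 (0.986), an enzyme that oxidises actin. SH2B2 (0.981), an adaptor of receptor tyrosine kinases, RRBP1 (0.977), a ribosome-binding protein of the endoplasmic reticulum, and BYSL (0.974), another ribosome assembly factor, came next. ARPC1B had 1252, 530 and 245 in enzastaurin cells, against 906, 1496 and 1496 in untreated cells. SH2B2 had 690, 334 and 224 in enzastaurin cells, against 408, 879 and 941 in untreated cells. Both thus shared the high enzastaurin value at 3 h only and the low untreated value at 3 h only. Of the 3 other kept RRBP1 probe sets 2 also had ratios of -2.13 or less at 6 and 12 h, and 1 had -0.57, -0.08 and 0.23 at the 3 times.

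The most opposite courses were those of SERINC5 (r = -0.992), DOCK4 (-0.984), SGPL1 (-0.980) and PLSCR1 (-0.962). SERINC5 encodes a membrane protein that restricts retroviruses, and DOCK4 an activator of small GTPases. SGPL1 degrades sphingosine 1-phosphate, and PLSCR1 is an interferon-induced scramblase. The log2 ratio of PLSCR1 was -0.25 at 3 h, 1.52 at 6 h and 2.24 at 12 h. Such likeness was common on these 6 arrays, since 48 of the 261 genes had r of 0.9 or more and 26 had -0.9 or less. Each like gene named was higher on every array of high ribosomal RNA signal than on any array of low signal. Each opposite gene named was lower there. The part of this split in these courses was not tested.

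Other genes of phosphotyrosine signalling were taken from 7 lists of 116 genes, 98 of them with a probe set of 1 symbol, and 60 were tested. The limma fit over 3 times called 0 of the 60, beside 0.0585 percent of all genes, the slope called 0, beside 1.43 percent, and the difference between 12 h and 3 h called 0, beside 0 percent. The fit of the later 2 pairs, 6 and 12 h, called 5 of the 60, with 3 higher and 2 lower, beside 3.61 percent of all genes. This fit left the 3 h pair out and had 1 residual degree of freedom, beside 16.9 prior degrees of freedom taken from other genes. Its SEs and p-values thus rest mostly on genes of like intensity. What a gene itself adds is how its ratio differed between 6 and 12 h. The fit called 247 of all genes, whereas leaving out the 6 h pair or the 12 h pair called 0. The lists were chosen with earlier results known, so these calls are a description. In the 6 h and 12 h pairs the ribosomal RNA signal and the ACTB 3' to 5' ratio moved with the treatment, and their part in the calls was not tested. The median mean log2 ratio of the 60 genes over 3 times was 0.06, against -0.05 over all genes.

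Among 6 tested receptor-type phosphatases PTPRO was called higher in the fit of 2 pairs (log2 ratio 0.74, SE 0.19, adjusted p = 0.0368 in limma, n = 2 pairs). PTPRO, which has a truncated form in B cells, had 2169, 5740 and 5369 in enzastaurin cells, against 2392, 3692 and 2992 in untreated cells. Both later enzastaurin values lay above all untreated ones. The brightest PTPRD probe set had log2 ratios of 0.40, 0.20 and 0.15. Its 2 other kept probe sets differed, with 0.20, 1.17 and 0.86 in one and -0.40, -0.38 and 1.59 in the other. PTPRG had -0.07, 0.63 and -1.21. None of 4 tested non-receptor phosphatases was called, and the brightest probe sets of PTPN9, PTPN18 and PTPN3 had ratios between -0.49 and 0.47 at every time. Another kept PTPN18 probe set had 0.83, -0.31 and -0.18.

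Dual-specificity and related phosphatases, which act on MAP kinases among other targets, had 14 tested genes. DUSP6, an ERK phosphatase, had 117, 114 and 111 in enzastaurin cells, against 313, 350 and 485 in untreated cells, and was called lower in the fit of 2 pairs (-1.87, SE 0.34, adjusted p = 0.00385 in limma). DUSP3, which acts on ERK and JNK, had 326, 306 and 496 in enzastaurin cells, against 199, 92.2 and 123 in untreated cells. It was called higher in that fit (1.87, SE 0.34, adjusted p = 0.00379 in limma), and both dimmer probe sets gave 0.95 or more at 6 and 12 h. Neither gene's groups overlapped, which held for 10.6 percent of all tested genes. DUSP1, an immediate early phosphatase of p38 and JNK, had ratios of 1.06, 1.08 and 0.64 and was not called.

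Kinases that these phosphatases act on were listed as Src, Syk and Tec families with CSK and its anchor PAG1, where 7 genes were tested and 0 called. All 7 had a mean log2 ratio above 0, where 2968 of 6838 genes did, and the median of the 7 was -0.03, 0.53 and 0.41 at 3, 6 and 12 h. TEC had 92.6, 134 and 313 in enzastaurin cells, against 88.4, 89.3 and 74.0 in untreated cells. TXK had a 12 h ratio of 1.22, and FYN, a Src family kinase, had 1.07, against 0.06 in another kept FYN probe set. Among 6 JAK and STAT genes STAT3, the factor downstream of IL-6 in myeloma cells, was called higher in the fit of 2 pairs (1.29, SE 0.32, adjusted p = 0.0315 in limma). STAT3 had 253, 548 and 761 in enzastaurin cells, against 250, 267 and 261 in untreated cells, while the ratios of its dimmer probe set were 0.36, 1.83 and 1.68. STAT5A had -0.02, -0.98 and -0.62, with a sign that turned at 3 h under other scalings, and STAT5B had -0.35, 0.30 and -0.43. Another kept STAT5B probe set had 0.09, -0.20 and -0.28, with opposite signs at 3 and 6 h.

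Inhibitory receptors and docking proteins that recruit SHP-1 or SHP-2 had 8 tested genes with 0 called, and a median log2 ratio of -0.02, 0.42 and 0.72 at 3, 6 and 12 h. SIRPA, which docks both phosphatases, had 145, 199 and 204 in enzastaurin cells, against 140, 69.9 and 112 in untreated cells. CEACAM1 had ratios of -0.73, 1.14 and 0.93, and the lymphocyte adaptor SIT1 had -0.90, 0.90 and 1.16. Among 15 adaptors and scaffolds VAV1, an exchange factor for Rac, was called lower in the fit of 2 pairs (-1.08, SE 0.29, adjusted p = 0.0484 in limma). VAV1 had 904, 577 and 474 in enzastaurin cells, against 653, 1148 and 1055 in untreated cells, and its 3 highest arrays were those of PTPN6. INPP5D, which encodes the lipid phosphatase SHIP1, had 336, 191 and 86.8 in enzastaurin cells, against 276, 278 and 392 in untreated cells, and was not called. LAT had ratios of -0.71, -1.02 and 0.06, against 0.49, -0.90 and -0.01 in its other kept probe set, so only the 6 h sign was shared.

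**Figure D5:**
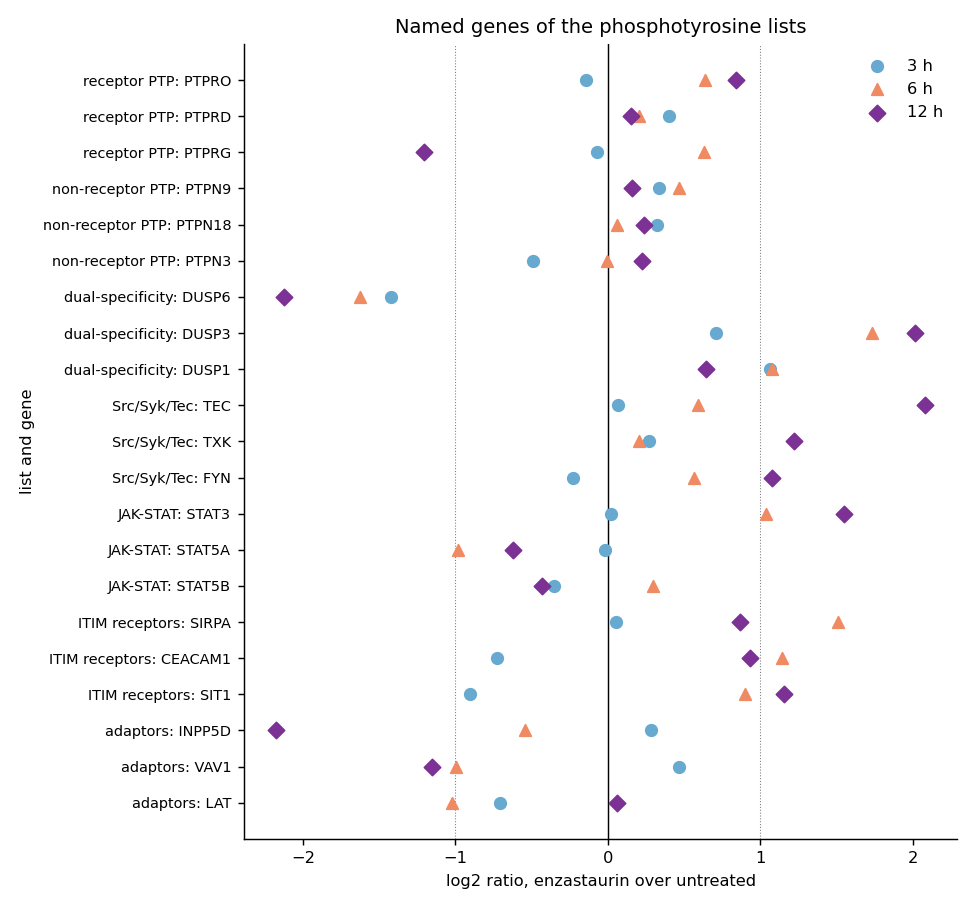
Log2 ratio of enzastaurin over untreated intensity at 3 h (circles), 6 h (triangles) and 12 h (diamonds) for the 3 tested genes of each of 7 lists with the largest absolute mean ratio, 1 pair of arrays per symbol, with dotted lines at a 2-fold difference. DUSP3, TEC and STAT3 lie at 1.55 or more at 12 h, and INPP5D and DUSP6 lie at -2.12 or less.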

How the data were processed

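RNA of 6 MM.1S samples was hybridised to Affymetrix arrays. The deposited values are linear intensities per probe set, made by the authors with MAS5, as named per the submitters' processing notes, and the version, scaling target and detection calls were not given in the sources used here. Each column was mapped through the sample labels. The authors' scaling was kept. Intensities were floored at 1 and log2 transformed. Of the 22277 probe sets, 19064 had 1 gene symbol, updated through Entrez identifiers to RefSeq names (GRCh38.p14) for 19052. The brightest probe set per gene in the upper 50 percent was kept.

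The treatment effect was estimated in R 4.3.3 with limma 3.58.1 (intensity trend in the prior variance, Benjamini-Hochberg adjustment), with the time point as a block, so each enzastaurin array was paired with the untreated array of its time. A slope on log2 hours and the 12 h against 3 h difference were fitted too. Since separate cultures are not stated, p-values measure at most how these arrays spread, which may be technical. They rest largely on the variance of other genes of like intensity. In the blocked fit a gene's own part of the error is how its ratio differs between times. At single times there was no replicate and no test. The number of arrays limits the precision. Fits were tested on simulated data, where the share of false calls was somewhat above the nominal 0.05. All member probe sets, the 6 most and 4 least like courses, and of each list every called gene and the 3 largest absolute mean ratios are named. Members and lists were chosen with earlier results of these data known. Alternatives varied the filter, probe set rule, scaling, floor, pseudocount, prior, block, covariate and arrays left out.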

Additional observations from a re-analysis of the deposited data

Results flagged for a closer look

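The log2 ratio of PTPN6 differed between times by the slope per doubling of hours, at -2.05, and was called in the limma fit over all genes. PTPN6 was listed with this course known, so the slope is a description and the call supports nothing. It was called in 8 of 10 alternative settings, and over all 10 the slope lay between -2.09 and -1.92. PTPN6 has 1 probe set, so settings that change only the filter, probe set rule, floor or prior could not alter its slope. Calls in those settings therefore say nothing of how firm the slope is. PTPN6 missed the threshold after quantile normalization and with equal medians of the kept genes, where 0 genes were called. No other tested member and no gene of the 7 lists was called for its slope.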

How the results depend on the processing

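The mean PTPN6 log2 ratio stayed below 0 in all 15 alternatives, from -1.48 to -0.84, and from -2.60 to -0.55 when 1 pair was left out. PTPN7, PTPN12 and PTPRCAP also kept their sign in every alternative run, and PTPN11, PTPN1 and PTPN2 changed it in 3, 1 and 1 of 15. PTPN6, PTPN7 and PTPRCAP have 1 probe set each. For them the settings that change only the filter, probe set rule, floor, prior or block could not alter the mean. Those settings therefore say nothing of how firm the sign is. The difference between 12 h and 3 h turned for PTPN12 with the median over probe sets (0.43) and for PTPRCAP when kept genes had equal medians (0.014). The 4 genes called over 3 times became 1 with no filter, with quantile normalization or with equal medians of all probe sets. They became 0 without the intensity trend (360 with an unadjusted p under 0.05 in limma), 2 with no replicate block and 74 with the ribosomal RNA covariate, and 0 to 247 with 1 pair left out. The 98 slopes became 151 with no filter, 167 with equal medians of all probe sets and 0 with quantile normalization (722 with an unadjusted p under 0.05 in limma) or equal medians of the kept genes (675). The 310, 603 and 977 genes at least 2-fold apart at 3, 6 and 12 h became 1578, 2061 and 2224 with no filter and 158, 333 and 594 with the upper 30 percent kept. At 3 h they were 498 and at 6 h 936 with every probe set tested, and at 3 h 204 with a pseudocount of 16. In the slope fit the weight of the prior variance, taken from other genes, changed too. Its prior degrees of freedom were infinite in the main setting, with 754 genes at an unadjusted p under 0.05 in limma. They were 10.1 with quantile normalization and 8.04 where kept genes were scaled to equal medians. Each of these fits had 1 residual degree of freedom. Whether the lower weight of the prior removed the slope calls was not tested. The causes of the other changes were not tested either. Settings of the filter and probe set rule also changed how many were tested. Against 6838 genes in the main setting there were 11963 with no filter and 4334 with the upper 30 percent kept. With every probe set tested there were 9798 probe sets. The counts of these settings thus have unlike totals. The slope could not be fitted with 1 pair left out. Dim probe sets, those of PTPRC and PTPN22 among them, limit what these arrays show.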
